A study of Mus musculus with 3 samples.

Results

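Intervals of LMX1B occupancy were examined at 4 mouse genes: Twist1, Twist2, Ferd3l and Hdac9, which lies beside Twist1. LMX1B is a LIM homeodomain protein that gives the limb bud its dorsal character. The genes were selected on the intervals listed near them in these same data, so the values below describe the locus and are not tests of it. Each gene was given a domain, which is its body extended on both sides to the next protein-coding gene body, by at most 1 Mb. Intervals whose midpoint lay in a domain were counted. They came to 8 of the 1287 intervals of the first ChIP and 16 of the 4501 intervals of the validation ChIP, in 4 of 21761 protein-coding gene domains.

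Both ChIP-seq samples came from C57BL/6 limb buds taken at embryonic day 12.5, forelimbs and hindlimbs together, and used the polyclonal LMX1B antibody BMO8 (also spelled BM08). The labels describe 2 runs of 48 limb buds. The title of the series gives the limb buds as wild type, which the track of the first ChIP repeats and that of the validation ChIP does not. An input of pooled wild-type and mutant chromatin is not analysed here. Each group is 1 sample, so no value below has a replicate error, and whole limb buds mix dorsal and ventral cells with mesenchyme, ectoderm, muscle and vessels.

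Twist1 and Twist2 encode basic helix-loop-helix (bHLH) transcription factors of mesenchyme. They act as dimers, often with ubiquitous E proteins, and Twist1 is needed for limb bud outgrowth and for the skull sutures. Ferd3l encodes a related bHLH protein known from the neural tube. Hdac9 encodes a class IIa histone deacetylase, an enzyme family that binds MEF2 factors, and its long gene body is known from reporter and deletion work to hold limb enhancers that act on Twist1. The positions of those enhancers were not used here, and whether any interval below is one of them was not tested.

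The sequences below are the promoter windows that matter for the positions that follow: that of Twist1, from whose start distances are measured; that of the internal start of Hdac9, which divides the intervals of the gene body; and that of Hdac4, the neighbour of Twist2, which lay under an interval. Each runs from 250 bases before to 50 bases after an annotated start, 5′ to 3′ on the gene's strand, from RefSeq on GRCm38.p6. They are chr12:33957421-33957720 (plus strand), chr12:34528840-34529139 (minus strand) and chr1:92180292-92180591 (minus strand). Capitals mark TAAT, or ATTA on the other strand, the short core of many homeodomain sites.

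Twist1: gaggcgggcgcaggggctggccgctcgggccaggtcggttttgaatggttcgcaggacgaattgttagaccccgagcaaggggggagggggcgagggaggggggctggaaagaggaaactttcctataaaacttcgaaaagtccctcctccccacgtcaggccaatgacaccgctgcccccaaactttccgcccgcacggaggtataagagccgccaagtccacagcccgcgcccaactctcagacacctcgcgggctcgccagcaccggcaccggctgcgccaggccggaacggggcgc

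Hdac9 internal start: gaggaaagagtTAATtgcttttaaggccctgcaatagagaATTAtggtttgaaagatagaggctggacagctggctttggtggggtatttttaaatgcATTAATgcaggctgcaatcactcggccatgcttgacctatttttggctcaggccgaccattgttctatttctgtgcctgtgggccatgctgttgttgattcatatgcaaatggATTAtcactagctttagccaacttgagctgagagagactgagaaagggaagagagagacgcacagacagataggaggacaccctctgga

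Hdac4: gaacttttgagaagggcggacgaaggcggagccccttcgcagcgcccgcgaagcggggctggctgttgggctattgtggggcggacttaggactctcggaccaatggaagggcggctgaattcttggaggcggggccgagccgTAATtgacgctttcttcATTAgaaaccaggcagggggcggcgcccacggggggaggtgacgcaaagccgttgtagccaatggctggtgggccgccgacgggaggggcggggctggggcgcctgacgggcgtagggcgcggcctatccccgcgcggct

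The Twist1 window held no such core, the internal Hdac9 window held 5, of which a pair overlap, and the Hdac4 window held 2. For scale, 51.7% of 21248 promoter windows of protein-coding genes held at least 1. The longer palindrome TAATTA was in none of the 6 windows of the 4 genes and Hdac4, and in 4.53% of all windows. These are letters in a window, not sites. The bases under the other intervals were not used here.

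All first-ChIP intervals in the 4 domains lay inside the Hdac9 gene body. The body spans chromosome 12 from 34047580 to 34917095 (870 kb) on the minus strand, and its near end is 87.7 kb from Twist1 (33957671 to 33959831, plus strand). The Hdac9 domain, 1020 kb long, held 8 first-ChIP and 13 validation intervals, every one of them in the gene body. Of these, 7 first-ChIP intervals overlapped 7 validation intervals by at least 1 bp and are called shared. Over the whole lists, 54.9% of first-ChIP and 15.6% of validation intervals were shared. The domain of Twist1 itself, 118 kb, held no interval of either list, and neither did the stretch between Twist1 and Hdac9 or that beyond Hdac9 as far as Prps1l1.

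For comparison, 6.04% of all protein-coding domains held a first-ChIP interval, 15.1% a validation interval and 3.41% a shared one. Domains with as many shared intervals as that of Hdac9 were few: 4 genes had at least 7, namely Zfp608 with 9 and Dnm3, Tbx18 and Hdac9 with 7 each. Long domains have more room for intervals. Among 836 genes with a domain at least as long as that of Hdac9, the median number of shared intervals was 0, and 3 had 7 or more, Hdac9 among them. With all validation intervals, 34 genes had at least 13, so in that list the count for Hdac9 was less far from those of other genes. Since Hdac9 was chosen for its intervals, these ranks describe the choice. They rest on overlaps of at least 1 bp; with at least 50% of both intervals Hdac9 had 4 shared intervals, and its rank by that count was not computed.

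**Figure D1:**
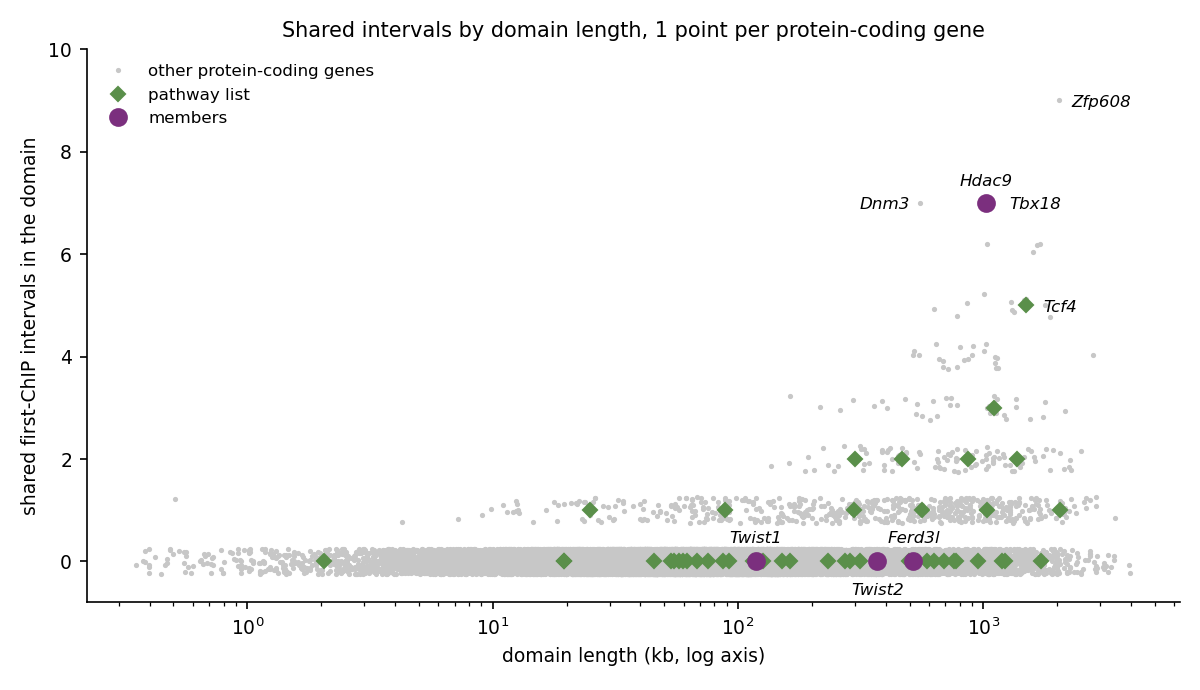
Shared first-ChIP intervals in a gene's domain (vertical axis, small random shifts for grey points below 7) against domain length in kb (log axis), with 1 point per protein-coding gene. Hdac9 is at 7 shared intervals with Tbx18 behind it, while Twist1, Ferd3l and Twist2 are at 0.

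The intervals in Hdac9 formed an inner group on the Twist1 side and an outer group. RefSeq lists an outermost start of Hdac9 at its far end, 959 kb from the Twist1 start, and the internal start, 571 kb from it. Between the Twist1-side end and the internal start were 3 first-ChIP and 5 validation intervals, 243 to 263 kb and 213 to 263 kb from Twist1. The outer part, between the internal and the outermost start, held 5 first-ChIP intervals (624 to 834 kb) and 8 validation intervals (624 to 908 kb). Between the groups, from 34220945 to 34581274, a stretch of 360 kb had no interval of either list, and the internal start lies in it. All 3 inner first-ChIP intervals were shared, as were 4 of the 5 outer ones, against 54.9% of the whole first-ChIP list. The count depends on the overlap asked for: with at least 50% of both intervals, 4 of the 7 pairs were left, and those 263, 637 and 647 kb from Twist1 were not among them.

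**Figure D2:**
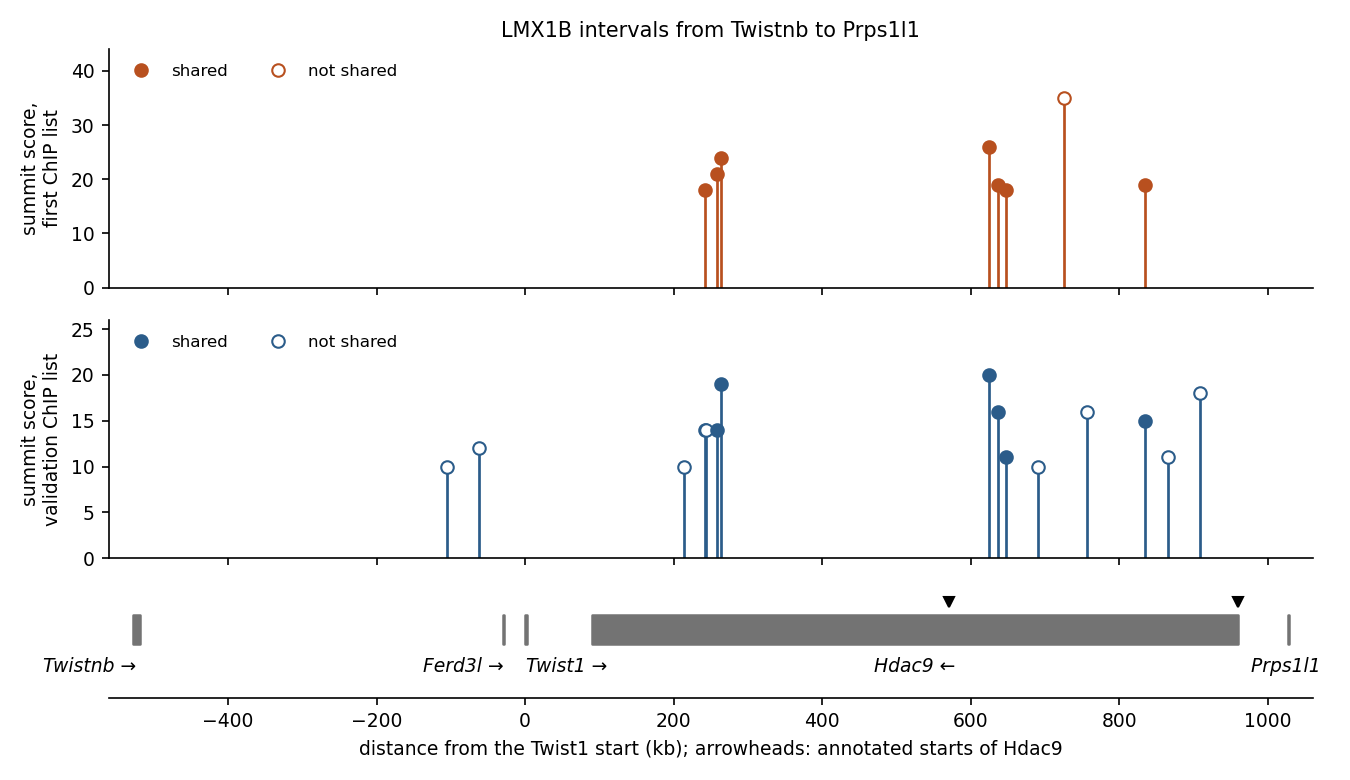
Summit scores of the first ChIP (top) and the validation ChIP (middle) against distance from the Twist1 start in kb, with gene bodies below (arrows give the strand; no strand was available for Prps1l1). Filled points are shared intervals: all 7 shared pairs are inside Hdac9, and the tallest first-ChIP point, with a score of 35, is open.

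The inner first-ChIP intervals lay 80.1 to 82.4% of the way along the Hdac9 body, counted from its outermost start. The nearest to Twist1, at 34200076 to 34200548 in the first ChIP, had a score of 18, and its partner at 34199696 to 34200497 a score of 14. A shared pair 258 kb from Twist1, at 34215718 to 34216126 with a score of 21 and at 34215744 to 34216258 with 14, overlapped the long noncoding RNA locus Gm51984. No other interval in the domain was nearer to an annotated start: the midpoints were 0.848 kb and 0.927 kb from the start of that locus.

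The highest-scoring inner pair was the third, at 34220388 to 34220826 with a first-ChIP score of 24 and at 34219691 to 34220944 with a validation score of 19. In the first-ChIP list 76.1% of intervals had a lower score than this one, and in the validation list 90.8%. The validation interval was 1254 bp wide, the widest in the domain, held the whole 439 bp of its partner and touched the end of Gm51984. Scores have no stated unit, so they rank intervals within a list and are not set against each other between lists.

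In the outer group, 3 shared pairs stood close together and 1 apart. The pair with the highest shared scores of the locus was at 34581436 to 34581998 (first-ChIP score 26) and 34581275 to 34582190 (validation score 20), and 82.7% and 92.5% of the intervals in those lists scored lower. It was 52.8 kb from the internal start of Hdac9, on the upstream side. The next, at 34594125 to 34594689 and 34593813 to 34595060, had scores of 19 and 16. A lower-scoring pair followed at 34604456 to 34604757 and 34604241 to 34604926, with scores of 18 and 11, and 23.9% and 42.4% of the lists were lower. The last shared pair stood 834 kb from Twist1 and 125 kb from the outermost start, at 34791878 to 34792301 and 34791999 to 34792479, with scores of 19 and 15.

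Summits of the 7 pairs were 32 to 384 bp apart, with a median of 48 bp, and 5 pairs were within 100 bp. Over all 707 shared first-ChIP intervals the median was 64 bp, with 74.0% within 100 bp. Most summits sit on a grid of 16 bp (96.3% of the first-ChIP and 94.4% of the validation summits are multiples of it), so shorter distances are not resolved. The pair with the largest distance, 384 bp, was the one 637 kb from Twist1, whose validation interval was 1248 bp wide. In 4 pairs the first-ChIP interval lay wholly inside its partner, and overlaps ran from 302 to 565 bp. These 7 first-ChIP intervals, and not the unshared interval described next, were among the 735 active regions that the authors deposited beside the lists. All 735 regions have the borders of intervals from the first-ChIP list of 1287, and none has those of a validation interval. The equal borders are therefore not a separate observation of the 7 intervals. How the regions were chosen was not tested.

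**Figure D3:**
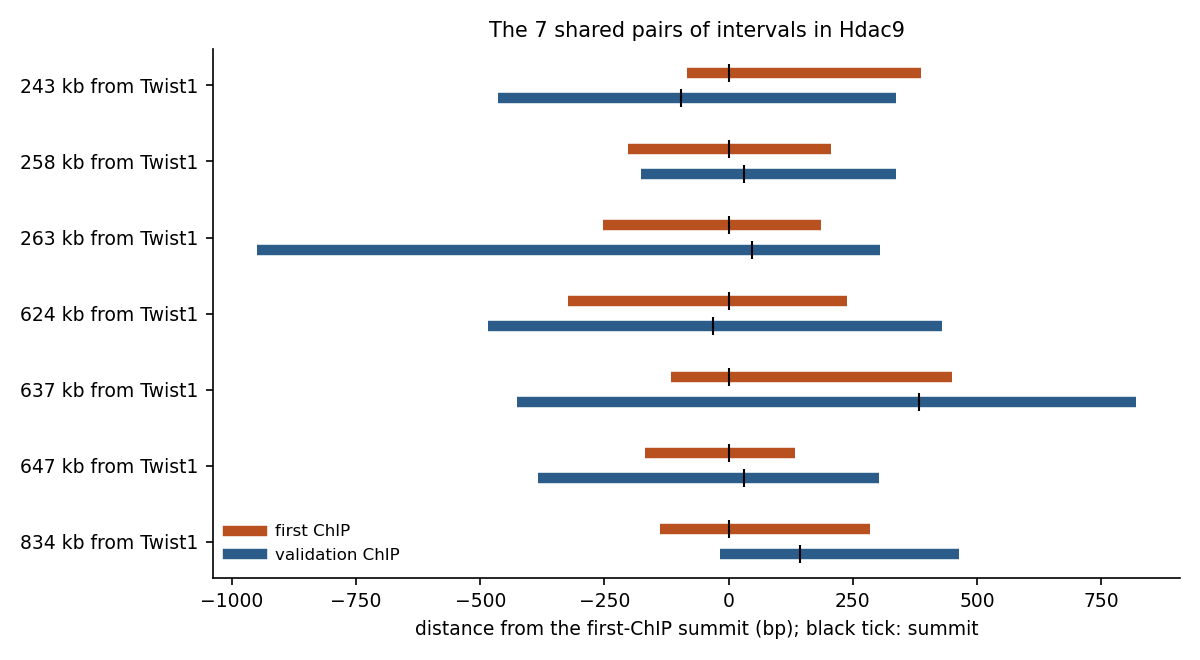
Extent of each of the 7 shared pairs in Hdac9, in bp from the first-ChIP summit, ordered by distance from the Twist1 start. Validation intervals reach farther on both sides in 4 pairs, and black ticks mark the summits, which are 384 bp apart in the fifth pair.

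The highest first-ChIP score of the locus belonged to the interval that was not shared. It lay at 34683268 to 34683928, 726 kb from Twist1, was 661 bp wide and had a score of 35, and 95.0% of the first-ChIP list scored lower. The nearest validation interval was 30.4 kb away. Such intervals were not rare in the list: of 64 first-ChIP intervals with a score of 35 or more, 15 (23.4%) overlapped no validation interval.

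Over the whole validation list 15.6% of intervals were shared, and the others had a median score of 11. Of the 13 validation intervals in Hdac9, 6 had no first-ChIP partner, with scores of 10 to 18 and a median of 12.5. One of them, at 34201105 to 34201920 with a score of 14, was 556 bp from a first-ChIP interval and 607 bp from the neighbouring validation interval of the nearest shared pair. The one closest to Twist1 lay at 34170781 to 34171559, 213 kb away, with a score of 10. Between the outer pairs and beyond them were intervals starting at 34647784 with a score of 10, at 34714344 with 16 and at 34823229 with 11. The highest, 18, was at 34865103 to 34865852, 51.6 kb inside the outermost end of Hdac9, and 89.0% of the validation list scored lower. The read depth and calling limit of each sample are not known, and their part in which intervals were listed in 1 sample was not tested.

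**Figure D4:**
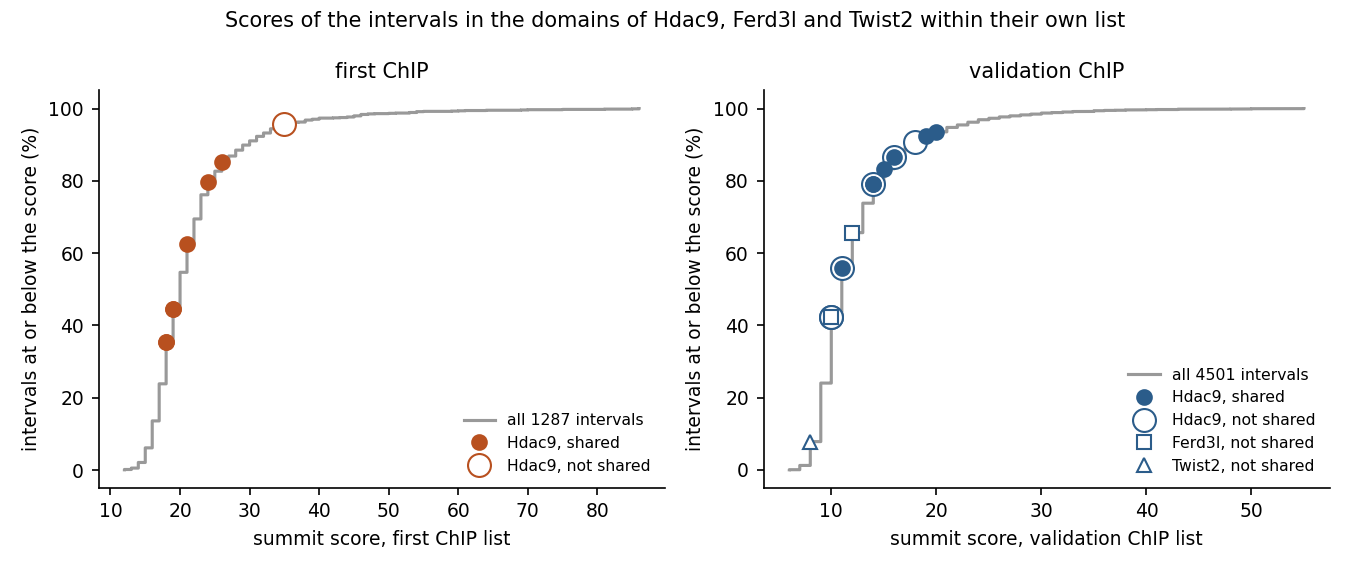
Share of each list at or below a summit score (grey line), with the intervals in the domains of Hdac9, Ferd3l and Twist2 placed on it by their own score. Shared Hdac9 intervals run from 18 to 26 in the first ChIP and from 11 to 20 in the validation ChIP, and the Twist2 interval, at 8, is near the bottom.

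As a whole the Hdac9 intervals stood around the median score of the first-ChIP list and mostly above that of the validation list. First-ChIP scores ran from 18 to 35 with a median of 20.0, equal to that of the whole list (20), and 4 of 8 were at or above it. Validation scores ran from 10 to 20 with a median of 14.0, against 11 for the list, and 11 of 13 were at or above that. Scores are whole numbers with many ties, and 42.4% of the whole validation list scored below 11. The 7 shared pairs had median scores of 19 (first ChIP) and 15 (validation ChIP). These were below the medians of 22 and 16 over all shared intervals of those lists. No interval in the domain of Hdac9, Twist1, Ferd3l or Twist2 overlapped any of the 5 annotated promoter windows of these genes, while 1.05% of all protein-coding windows lay under a first-ChIP interval and 1.70% under a validation interval. The intervals in Hdac9 were 51.6 kb or more from either of its listed starts. Whether they are in exons or introns was not resolved, because the gene table has no exons.

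On the other side of Twist1 there were fewer intervals than in Hdac9. Most domains have none: over all protein-coding genes, 6.04% of domains held a first-ChIP interval and 15.1% a validation interval. Ferd3l (33928425 to 33929310, plus strand) has a domain of 518 kb that reaches to Twistnb, and it held no first-ChIP interval and 2 validation intervals. One, at 33894649 to 33895405 with a score of 12, was 33.4 kb from Ferd3l and 62.6 kb from the Twist1 start. The other, at 33851609 to 33852064 with a score of 10, was 106 kb from Twist1. Both lay outside annotated gene bodies, and the nearest first-ChIP intervals were 305 and 348 kb away.

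The first-ChIP intervals next to the group in Hdac9 were far away on both sides. Spacing over the whole list was not computed, so whether such distances are unusual is not known. Below the Twistnb border of the Ferd3l domain the next first-ChIP interval was 4800 kb away, with a score of 75, and above the Prps1l1 border of the Hdac9 domain it was 1810 kb away, with a score of 17. In the validation list the next intervals were 1470 kb below and 847 kb above, with scores of 10 and 19. The intervals just inside these borders were 761 kb and 193 kb from them in the first ChIP, and 412 kb and 119 kb in the validation ChIP.

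Twist2 has the same kind of neighbour. On chromosome 1 its body (91801461 to 91848034, plus strand) is 80.7 kb from Hdac4 (91928779 to 92195702, minus strand), another class IIa deacetylase gene. As with Twist1 and Hdac9, the pair is convergent, with the ends of the genes facing each other. The body of Hdac4, 267 kb long against 870 kb for Hdac9, held no first-ChIP and no shared interval. Most genes have neither: 6.04% of all protein-coding domains held a first-ChIP interval and 3.41% a shared one. Hdac9 was chosen for its intervals, so the contrast with it says nothing particular about Hdac4. The Twist2 domain, 369 kb, had no first-ChIP interval and 1 validation interval at 91644525 to 91645009, 157 kb upstream of the Twist2 start. This interval lay nearer to Asb1, the next coding gene on that side, 104 kb from its start, and it is in the Asb1 domain as well. Its score was 8, and 1.2% of the validation list scored lower. The nearest first-ChIP intervals beyond the borders of this domain were 783 kb below and 1870 kb above.

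The Hdac4 domain, 591 kb, had 3 validation intervals. Its highest, at 92180230 to 92180840 with a score of 17, covered the whole promoter window printed above, and its midpoint was 0.194 kb from that start. A neighbour at 92179194 to 92179842, with a score of 16, was 0.823 kb from the same start. The third, at 92379352 to 92379800 with a score of 10, was outside coding genes, with its midpoint 0.019 kb from the start of the noncoding locus Gm35992. The Hdac4 start used here lies 15.4 kb inside the outermost end of the gene body. Over all protein-coding genes, 1.70% of promoter windows lay under a validation interval. At Hdac4, then, 2 of 3 validation intervals lay within 1 kb of an annotated start of the gene. Those in Hdac9 lay at least 51.6 kb from its listed starts. The difference rests on 1 sample and was not tested.

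**Figure D5:**
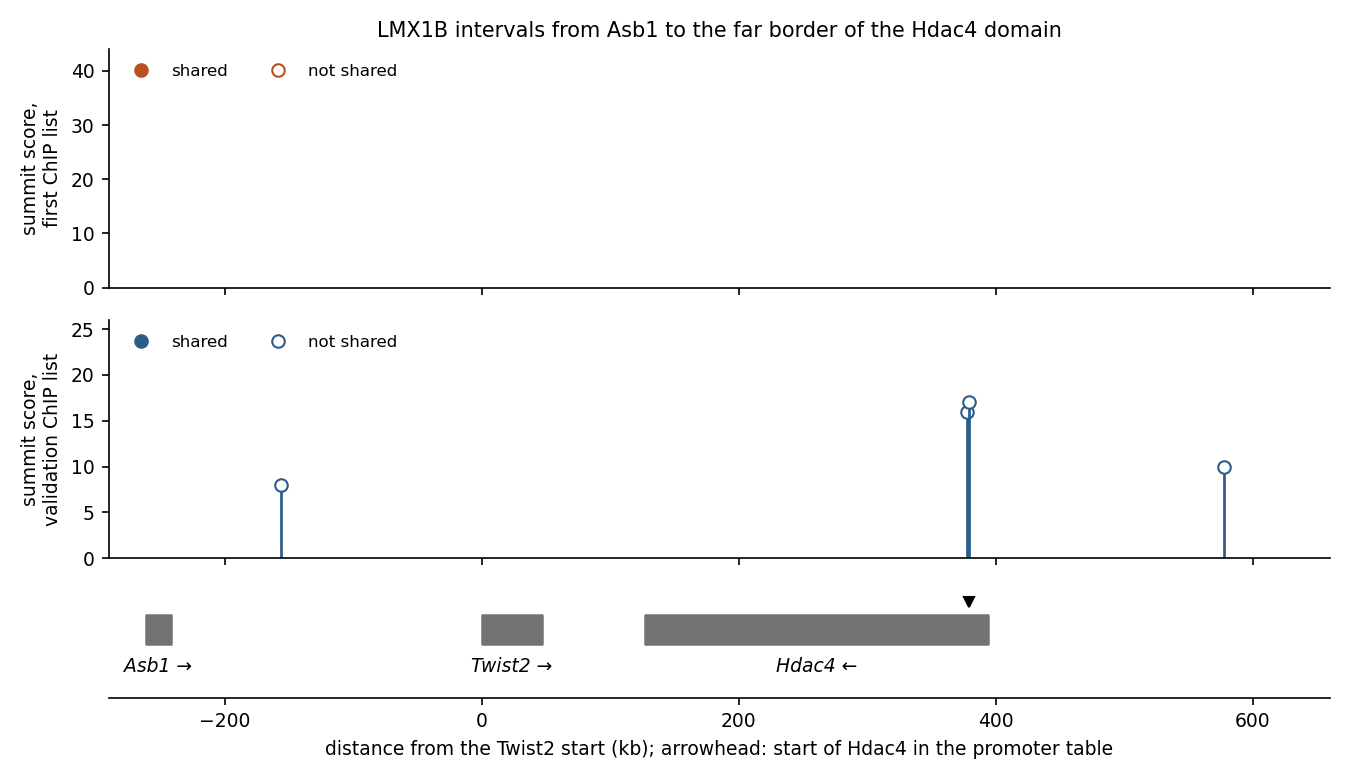
The Twist2 and Hdac4 locus, with summit scores of the first ChIP (top, no interval) and the validation ChIP (middle) against distance from the Twist2 start in kb and gene bodies below. The paired points at 16 and 17 are at the Hdac4 start used here (arrowhead), which lies inside the gene body, and the point at 8 is upstream of Twist2.

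Genes related to Twist proteins or to Hdac9 were then counted from a list of 47. It held 3 genes of E proteins, 9 other bHLH genes, 4 genes of Id inhibitors and 7 genes of class IIa deacetylases and MEF2 factors. The other 24 are known to act with or below Twist1 in limb bud or mesenchyme. The list was written with earlier results of these data known, and its domains are long, with a median of 285 kb against 67.3 kb for all protein-coding genes. In all, 14 (29.8%) had a first-ChIP interval in their domain, 25 (53.2%) a validation interval and 12 (25.5%) a shared one, while 21 had none of either. Over all protein-coding genes these shares were 6.04%, 15.1% and 3.41%, with the shorter domains just given. The median number of shared intervals was 0, as over all genes. With 100 kb on each side of the gene body in place of the domain, 8 of the 47 had a first-ChIP interval, 28 a validation interval and 6 a shared one, against 12.5%, 27.2% and 4.83% of all protein-coding genes.

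All 3 genes of the E proteins, the dimer partners of TWIST, had shared intervals in their domains, against 3.41% of all protein-coding genes. The domains of Tcf4 (1500 kb) and Tcf12 (465 kb) are long, while that of Tcf3 (88.1 kb) is nearer the median of 67.3 kb over all genes. With 3 genes from a list written with earlier results known, the count is a description alone. Tcf3 had 1 and Tcf12 had 2, all in the gene body, with best first-ChIP scores of 24 and 22. Tcf4, known for its role in the nervous system, had 5 shared intervals, all outside its body at 218 to 433 kb. Over all intervals in its domain, shared or not, the best score was 39 in the first ChIP and 43 in the validation ChIP. Of 9 other bHLH genes, with a median domain of 115 kb, 3 (33.3%) had a shared interval. Hand2, needed for posterior limb identity, had 2, 488 and 611 kb away, and Msc and Tcf24 had 1 each, 186 and 16.1 kb away. Hand1, Scx, Tcf15, Tcf21, Tcf23 and Ptf1a had none of either list. Of the 4 Id genes, which encode inhibitors that bind E proteins and have a median domain of 574.5 kb, 1 (25.0%) had a shared interval. This was Id2, at 796 kb, while Id3 and Id4 had validation intervals alone, and Id1 had none.

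The other class IIa deacetylase genes and the MEF2 genes had shares near those of all genes: 1 of 7 (14.3%) had a validation interval, against 15.1% of all protein-coding genes, and 0 of 7 a first-ChIP or shared one, against 6.04% and 3.41%. With 7 genes such counts say nothing particular about the group. Of Hdac4, Hdac5, Hdac7, Mef2a, Mef2b, Mef2c and Mef2d, Hdac4 alone had an interval.

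Of 24 genes known to act with or below Twist1 in limb bud or mesenchyme, 5 (20.8%) had a shared interval, against 3.41% of all protein-coding genes. The median domain of the 24 is 306.5 kb, against 67.3 kb over all genes. Bmp4, a growth factor gene, had 3 at 215 to 557 kb, and the best score over all intervals in its domain, shared or not, was 24 in each list. Gli3, which encodes a Hedgehog effector, had 2 at 120 and 628 kb, and Prrx1, a limb mesenchyme homeobox gene, had 2 in its gene body. Msx1, a homeobox gene of the early limb bud, had 1 at 71.0 kb, and Cdh2, which encodes N-cadherin, had 1 at 151 kb. Among listed genes without a shared interval, Zeb1 had a first-ChIP interval with a score of 16, below the median of 20 of that list. Id4 and Pdgfra had validation intervals with best scores of 16 and 15, above the median of 11 of theirs. Gli1, Shh, Alx4, Snai1, Cdh1, Fgf8, Fgf4 and Grem1 had no interval of either list in their domains. An empty domain does not show that a gene has no distant interval, because the domain ends at the next protein-coding gene.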

How the data were processed

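ChIP-seq intervals of LMX1B in 2 samples of mouse limb buds were analysed, with 1 sample per group and hence no replicates. The labels do not say whether the samples were separate chromatin preparations. BWA, a read aligner, and the mm10 build are named in the submitters' processing notes; the peak caller and its threshold were not given in the sources used here. The authors deposited intervals and, for each, a summit with a whole-number score whose scale is not stated. Depth is unknown, since the lists hold no read counts. The file of the validation sample repeats the 1287 first-ChIP intervals, and the lists were separated by track name.

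Gene bodies, starts and promoter windows came from RefSeq tables of GRCm38.p6, the assembly that mm10 is built on. Entries that start before 3 Mb or are on no assembled nuclear chromosome (442) were left out. Coordinates count from 1. Positions were compared with Python 3.11.15 and pandas 2.3.3, and the functions were tested on simulated data. No test of significance was run. Promoter sequences were to be shown only where an interval overlapped a window; those of Twist1 and the internal Hdac9 start were added as position marks. The members and lists were chosen with earlier results of these data known. Genes named were the 4 members, those at their domain borders, list genes with a shared interval, and those others with the highest-scoring interval, stopping above a tie at a score of 14, of which 1 is not reported here; this rule took scores of both lists together, although their scales cannot be compared, so no order is read from it; genes without an interval are named for whole groups.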

Additional observations from a re-analysis of the deposited data

How the results depend on the processing

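Of the counts under alternative settings, 61 stayed within 1.5 times the reported value and 9 did not. Many of the 61 were 0 under both settings, so the tally says little about the other counts. The counts of 8 first-ChIP and 13 validation intervals at Hdac9 did not change with domains of at most 0.5 Mb, with 100 kb on each side, by nearest gene, by summit and by any base. All of them lie in the gene body, which each of these settings keeps, so the counts could not fall. The Hdac9 domain extends 87.7 kb and 67.7 kb beyond the body, so the limit of 0.5 Mb left it the same. With intervals at or above the median score of their list, where fewer intervals are compared, Hdac9 had 4 first-ChIP intervals, Ferd3l 1 validation interval and Twist2 0. With an overlap of at least 50% of both intervals, 4 of the 7 shared pairs were left. With a fixed window of 100 kb, Twist1 had 1 validation interval, which is one counted for Ferd3l above, and Twist2 had 0. In that window 8 genes of the list of 47 had a first-ChIP interval and 6 a shared one. By nearest gene Twist2 had 0. Leaving out a replicate was not possible with 1 sample per group. Unknown read depth and the unstated score scale limit any comparison of absent intervals between the samples.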
